A study of Mus musculus with 12 samples.

Results

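The circadian clock genes described here are 10 genes of the molecular clock and its output in the mouse hippocampus, Per1, Per2, Per3, Arntl, Nr1d1, Nr1d2, Dbp, Tef, Cry2 and Bhlhe41, out of 24209 genes in the deposited tables. They were chosen by name, and the RefSeq transcript entries that carry each symbol were added up. RNA came from whole hippocampi of 12 male C57BL/6 mice in 2 experiments of 6 mice, which were injected at 10 weeks of age and dissected 10 weeks later. All mice received an AAV vector in which the synapsin promoter, active in neurons, drove GFP. GFP-miR-9sp and GFP-miR-34sp also carried a sponge, a run of binding sites that sequesters the named miRNA family, and GFP Ctrl carried GFP only. In the miR-9 experiment, mice 17, 23 and 9 received GFP-miR-9sp and mice 16, 2 and 8 GFP Ctrl. In the miR-34 experiment, mice 13, 18 and 3 received GFP-miR-34sp, and GFP Ctrl went to a separate set of mice numbered 10, 4 and 8. The vector acts in neurons, whereas the RNA came from all cells of the tissue, so that fewer cells of a type and less RNA per cell cannot be told apart. The hour of the day at which the tissue was taken is not given in the sources used here.

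The clock is a feedback loop that runs inside most cells. The proteins CLOCK and BMAL1, the latter encoded by Arntl, bind E-box sequences and switch on the Per and Cry genes, whose proteins return to the nucleus and repress them. NR1D1 and NR1D2 (also called REV-ERBα and REV-ERBβ) repress Arntl, and BHLHE41 competes at E-boxes. DBP and TEF are transcription factors of the PAR bZIP family that bind D-box sequences and pass the rhythm on to other genes.

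The sequences behind the question are shown first. The sponges were directed at the miRNA families below, whose mature sequences are from RefSeq (GRCm38.p6), with the seed (bases 2 to 8) in capitals. miR-34a-5p and miR-34b-5p share their seed, and miR-34c-5p, also of this family, is named only.
mmu-miR-9-5p: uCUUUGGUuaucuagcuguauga
mmu-miR-34a-5p: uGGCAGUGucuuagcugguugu
mmu-miR-34b-5p: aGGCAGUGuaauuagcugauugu

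In the 3′ UTRs of the longest transcripts in GENCODE M1, which ranged from 275 to 4609 bases over the 10 genes, the 7 bases complementary to the miR-9 seed were found in 0 of 10 genes. The match to the miR-34 seed was found in 2 of 10 genes, Tef and Cry2, with 1 site in each. Both sites are shown because they are the only seed matches among the clock genes, with the match in capitals.
Tef (match starting at base 23 of the 3′ UTR): ccccgcagggCACTGCCtgcacctc
Cry2 (match starting at base 962 of the 3′ UTR): gagagtgaagCACTGCCtggggcag

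Neither match is followed by an A. A miR-34 match of this kind was held by 31.6% of the 3′ UTRs within 0.8 to 1.25 times the length of that of Tef, and by 23.5% of those near the length of that of Cry2. Over all the clock genes, the share of 3′ UTRs of like length with a miR-34 match ran from 4.08% (Dbp) to 38.8% (Bhlhe41). For the miR-9 match, which none of the clock genes held, it ran from 2.3% (Dbp) to 35.1% (Bhlhe41). Whether the clock genes held fewer or more matches than such shares would give was not tested. A match is a description of the letters and was not tested as a binding site.

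The number of reads differed between the clock genes by several orders of magnitude, and it went with the number of RefSeq entries of a gene. The mice of the miR-9 experiment had total counts of 17279620 to 24428477, those of the miR-34 experiment 11029604 to 16934133. The 5 genes with 1 entry were well covered, with 4077 reads in the median mouse for Nr1d1, 3183 for Cry2, 2549 for Nr1d2, 890 for Per2 and 688 for Dbp. The 5 genes with 2 or more entries were not. Per1, the period gene that responds to light and to neuronal activity, had 0 to 5 reads per mouse and 0 in 5 of the 12 mice. For Per3 there were 0 reads in 9 mice and 1 in each of the others. Bhlhe41 had 4 to 11 reads, Arntl 21 to 76 and Tef 76 to 122.

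The same pattern was seen outside the clock genes. In the miR-9 experiment, 57.9% of the genes with 1 entry had a mean above 10 scaled reads, against 37.2% of those with 2 or more, and in the miR-34 experiment these shares were 56.2% and 32.5%. Of the marker and clock genes looked up, 9 had 0 reads in all 12 mice, and all 9 had 2 or more entries. Among them was Arc, an immediate early gene of neurons, with 2 entries. The rule by which reads shared between entries were counted is not given in the sources used here, and its part in these low counts was not tested. No level is therefore drawn from the reads of Per1, Per3 and Bhlhe41, which fell below the limit of 10 scaled reads, and those of Arntl and Tef may stem from only a part of each transcript. In all, 7 of the 10 clock genes were tested.

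**Figure D1:**
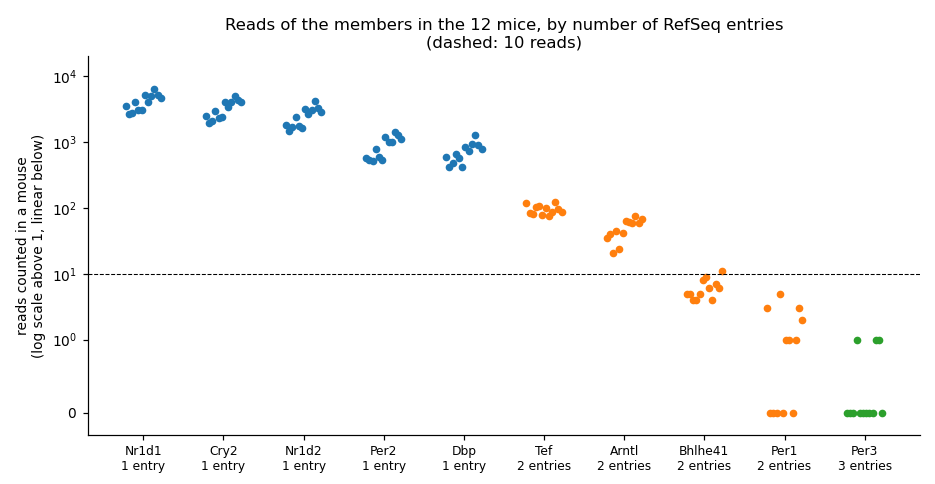
Reads counted for each clock gene (y axis, logarithmic above 1 and linear below) in each of the 12 mice (points), ordered and coloured by the number of RefSeq entries. Genes with 1 entry have at least 412 reads in every mouse, whereas Per1, Per3 and most values of Bhlhe41 lie at or below the dashed line at 10 reads.

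Levels can be set side by side only for the genes with 1 entry, as counts scaled to a library total of 1000000 (CPM) per kilobase of transcript. Nr1d1 was highest, with 89 ± 3.47 (SD, n = 6 mice) in the miR-9 experiment and 90.5 ± 5.4 in the miR-34 experiment. It was followed by Cry2, a repressor of CLOCK and BMAL1, with 50.7 ± 1.54 and 46.6 ± 2.04 CPM per kilobase, and by Nr1d2 with 33.2 ± 1.47 and 30.4 ± 2.08. Dbp came next with 26.2 ± 2.67 and 24.3 ± 3.58, and Per2 was lowest with 9.71 ± 0.392 and 7.84 ± 0.718. The order was the same in both experiments, and the ranges of neighbouring genes did not overlap, except for Nr1d2 (27 to 32.9) and Dbp (18.9 to 29.5) in the miR-34 experiment.

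The first question was whether a sponge changed the clock genes. No difference between sponge and GFP Ctrl mice was detected for any of the 7 tested genes in either experiment, and in every case the mice of the groups overlapped. The largest log2 fold change was that of Tef after GFP-miR-34sp, −0.17 with a standard error (SE) of 0.18 and an adjusted p of 0.931 (edgeR's quasi-likelihood test, Benjamini-Hochberg over all genes). The tests were made across 13045 genes in the miR-9 experiment, of which 0 (0%) were called at an adjusted p under 0.05 and 617 (4.73%) had an unadjusted p under 0.05, and DESeq2 called 2. In the miR-34 experiment 8 of 12492 genes (0.064%) were called and 803 (6.43%) had an unadjusted p under 0.05. Of the 7 clock genes, 0 passed either limit in either experiment.

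Dbp is a direct target of CLOCK and BMAL1 and among the most rhythmic transcripts in many tissues. It stood at 41.9, 42 and 48 CPM in GFP-miR-9sp mice 17, 23 and 9, and at 51, 40.5 and 40.1 in GFP Ctrl mice 16, 2 and 8. In the miR-34 experiment Dbp was at 39.4, 49.5 and 31.7 CPM in GFP-miR-34sp mice 13, 18 and 3, and at 44.1, 38.1 and 41.9 in GFP Ctrl mice 10, 4 and 8. The GFP-miR-34sp group thus held both the highest and the lowest mouse of its experiment. The log2 fold change of Dbp was −0.00 (95% interval −0.21 to 0.21) after GFP-miR-9sp and −0.05 (−0.33 to 0.23) after GFP-miR-34sp.

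Nr1d1, which represses Arntl, was at 254, 237 and 254 CPM after GFP-miR-9sp against 256, 236 and 239 in GFP Ctrl. After GFP-miR-34sp it was at 247, 269 and 235 CPM against 267, 248 and 236. The intervals of its log2 fold change, −0.08 to 0.13 for GFP-miR-9sp and −0.13 to 0.12 for GFP-miR-34sp, correspond to folds of 0.946 to 1.09 and of 0.916 to 1.09. Its partner Nr1d2 was at 156, 155 and 156 CPM after GFP-miR-9sp against 165, 146 and 148, with an interval of −0.09 to 0.13. After GFP-miR-34sp Nr1d2 was at 147, 153 and 125 CPM against 138, 137 and 146, with an interval of −0.13 to 0.15. Within the miR-34 experiment, mouse 3 was the lowest and mouse 18 the highest for both genes.

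Per2, whose protein represses CLOCK and BMAL1, was at 58.6, 58.6 and 52.4 CPM after GFP-miR-9sp against 56.3, 57 and 57.2 in GFP Ctrl, with an interval of the log2 fold change of −0.13 to 0.11. After GFP-miR-34sp Per2 was at 46.6, 51.4 and 39.8 CPM against 42.6, 48.9 and 45.2, with an interval of −0.18 to 0.20. Cry2 ranged from 195 to 210 CPM after GFP-miR-9sp and from 198 to 210 in its GFP Ctrl mice, with an interval of −0.10 to 0.08.

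The 2 genes with a miR-34 seed match were not called after GFP-miR-34sp. Cry2 was at 182, 203 and 184 CPM against 185, 182 and 183 in GFP Ctrl mice, and its log2 fold change was 0.05 ± 0.05 (SE) with an interval of −0.05 to 0.15 and an adjusted p of 0.921 (edgeR). Tef was at 6.29, 9.22 and 5.81 CPM against 8.77, 7.78 and 7.09, with an interval of −0.56 to 0.22. Its log2 fold change of −0.17 depended on mouse 18, the highest of the experiment. It was −0.38 without GFP-miR-34sp mouse 18 (unadjusted p = 0.0318, adjusted p = 0.816 by edgeR) and −0.05 without GFP-miR-34sp mouse 3. Tef and Arntl were the least precise and had the fewest reads of the tested genes, but the part of the read number in this was not tested. For Arntl, the interval was −0.27 to 0.44 after GFP-miR-9sp and −0.58 to 0.58 after GFP-miR-34sp, so that a change of up to 1.49-fold in the latter lies within it.

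**Figure D2:**
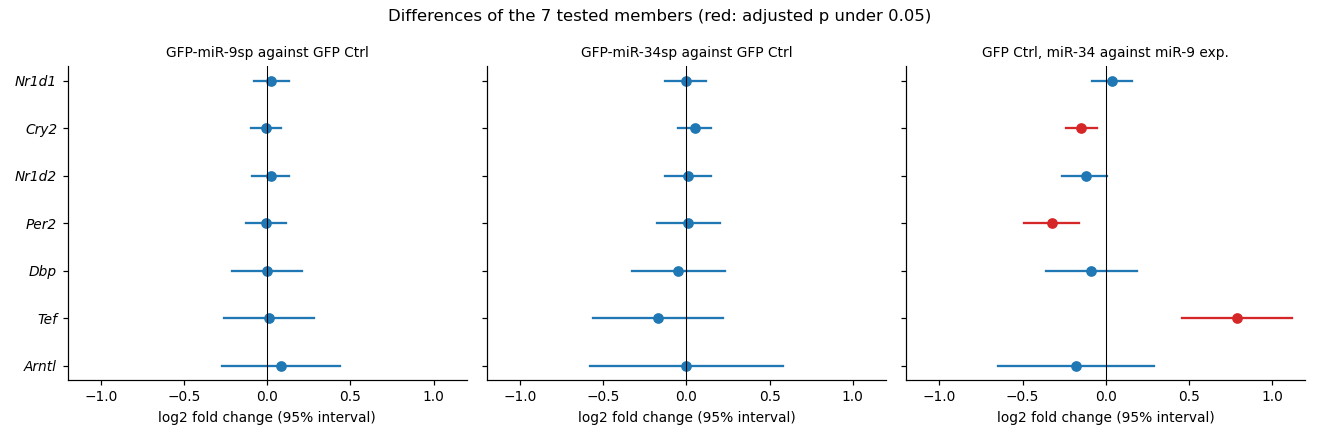
Log2 fold changes (points) with 95% intervals (lines) of the 7 tested clock genes for each sponge against the GFP Ctrl mice of its experiment, and for the GFP Ctrl mice of the miR-34 against those of the miR-9 experiment, with red for an adjusted p under 0.05. Every interval of the sponge comparisons includes 0, whereas Per2, Cry2 and Tef differ between the sets of GFP Ctrl mice.

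The sponge effects were also compared with each other. The difference between them, miR-34sp minus miR-9sp, was called for 0 of 12835 genes (0%), with 783 (6.1%) at an unadjusted p under 0.05 and 5 called by DESeq2. It ranged from −0.18 ± 0.22 (SE) for Tef to 0.05 ± 0.06 for Cry2 among the clock genes, of which 0 of 7 had an unadjusted p under 0.05. Without GFP-miR-34sp mouse 18 the difference for Tef was −0.39 (unadjusted p = 0.0477, adjusted p = 0.783 by edgeR).

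Of 12 further genes of the loop, 10 were tested in the miR-9 and 8 in the miR-34 experiment, and of 12 genes that modify clock proteins, such as kinases and ubiquitin ligases, 9 were tested in each. In these lists 0 genes had an unadjusted p under 0.05 in either sponge comparison. Their median log2 fold changes were −0.03 and 0.03 after GFP-miR-9sp and 0.03 and 0.02 after GFP-miR-34sp, against −0.00 for all genes in both.

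Markers of the choroid plexus, a tissue that adjoins the hippocampus, did differ in the miR-34 experiment. Their summed level over 12 genes, of which Folr1 was at 0 in all mice, was 78.1 to 161 CPM in GFP-miR-34sp mice and 670 to 2452 CPM in GFP Ctrl mice, and 3 of the 10 that were tested were called lower. The correlation of Dbp with this sum is given with other measures further on, and the part of this tissue in the levels of the other clock genes was not tested. Markers of hippocampal neurons were all counted, and those of astrocytes reached 2269 to 2671 CPM over the 12 mice, although the labels name neurons as the cell type.

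The GFP Ctrl mice of the 2 experiments received the same vector and were compared to see how far the levels of the clock genes moved with the experiment. Of 12835 genes, 3239 (25.2%) were called, 1934 higher and 1305 lower in the miR-34 experiment, and 4606 (35.9%) had an unadjusted p under 0.05. Scaled to total counts alone, 1383 genes were higher and 2438 lower. Of the 7 clock genes 3 were called, against 25.2% of all genes, and their median log2 fold change was −0.12 against 0.01. The sum of choroid plexus markers was 670 to 2452 CPM in these mice of the miR-34 and 127 to 733 CPM in those of the miR-9 experiment, with 6 of 10 tested markers called higher, and its part in these values was not tested. Experiment and library preparation cannot be told apart here, since the column names of the miR-9 experiment alone carry the word totRNA.

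Per2 was lower in the GFP Ctrl mice of the miR-34 experiment, at 42.6, 48.9 and 45.2 CPM against 56.3, 57 and 57.2 CPM, a log2 fold change of −0.32 ± 0.08 (SE) with an adjusted p of 0.00664 (edgeR). Cry2 was lower by a smaller amount, −0.15 ± 0.04 (adjusted p = 0.023 by edgeR), with 182 to 185 CPM against 198 to 210. Without mouse 8 of the miR-9 experiment the adjusted p of Cry2 was 0.0939, and the call was also lost without mouse 16 of that experiment (0.0513) or mouse 4 (0.0716) or 8 (0.059) of the miR-34 experiment. Tef was higher, at 7.09 to 8.77 CPM against 4.38 to 4.87 CPM, with 0.79 ± 0.16 and an adjusted p of 0.00157 (edgeR). In all 3 genes the sets of mice did not overlap, but the share of all genes without overlap was not counted. Among the further clock genes, the sets did not overlap for Cry1, Csnk1e, Noct and Prkaa1 either, and these were not called. Nr1d1 (0.04 ± 0.06), Dbp (−0.09 ± 0.13), Arntl (−0.18 ± 0.22) and Nr1d2 (−0.12 ± 0.06) were not called, although Nr1d2 was called at −0.19 with an adjusted p of 0.025 when scaled to total counts alone. Of the further genes of the loop, Npas2, a paralogue of Clock, was lower by −0.64 ± 0.08 and Hlf, the third PAR bZIP factor, by −0.30 ± 0.09 on the log2 scale. Csnk2a1, a subunit of a kinase that acts on clock proteins, was higher by 0.69 ± 0.04. Bhlhe40 (−0.14) and Noct (−0.11) had an unadjusted p under 0.05 only.

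The second question was how the clock genes varied between mice that had been treated alike. Dbp varied more than most genes. The SD of its log2 level among mice of the same group was 0.203, larger than in 97.3% of the 3678 genes with a mean level within 0.5 to 2 times its own, whose median SD was 0.075. For Nr1d2 the SD was 0.093 and larger than in 87.3% of genes of like level, for Per2 0.115 (86.8%), for Nr1d1 0.080 (82.1%) and for Arntl 0.306 (76.5%). Tef (0.199, 65.5%) and Cry2 (0.056, 56.3%) lay nearer to the middle. In the further lists, Hlf (0.141, 97.3%), Usp2 (0.348, 95.2%) and Ciart (0.289, 94.3%) stood out in the same way, and Csnk2a1 (0.045, 34.7%) and Prkaa1 (0.051, 29.7%) did not. Usp2 is a deubiquitinase with a clock-controlled transcript, and Ciart encodes a repressor of CLOCK and BMAL1. These percentages describe the 12 mice and carry no test.

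**Figure D3:**
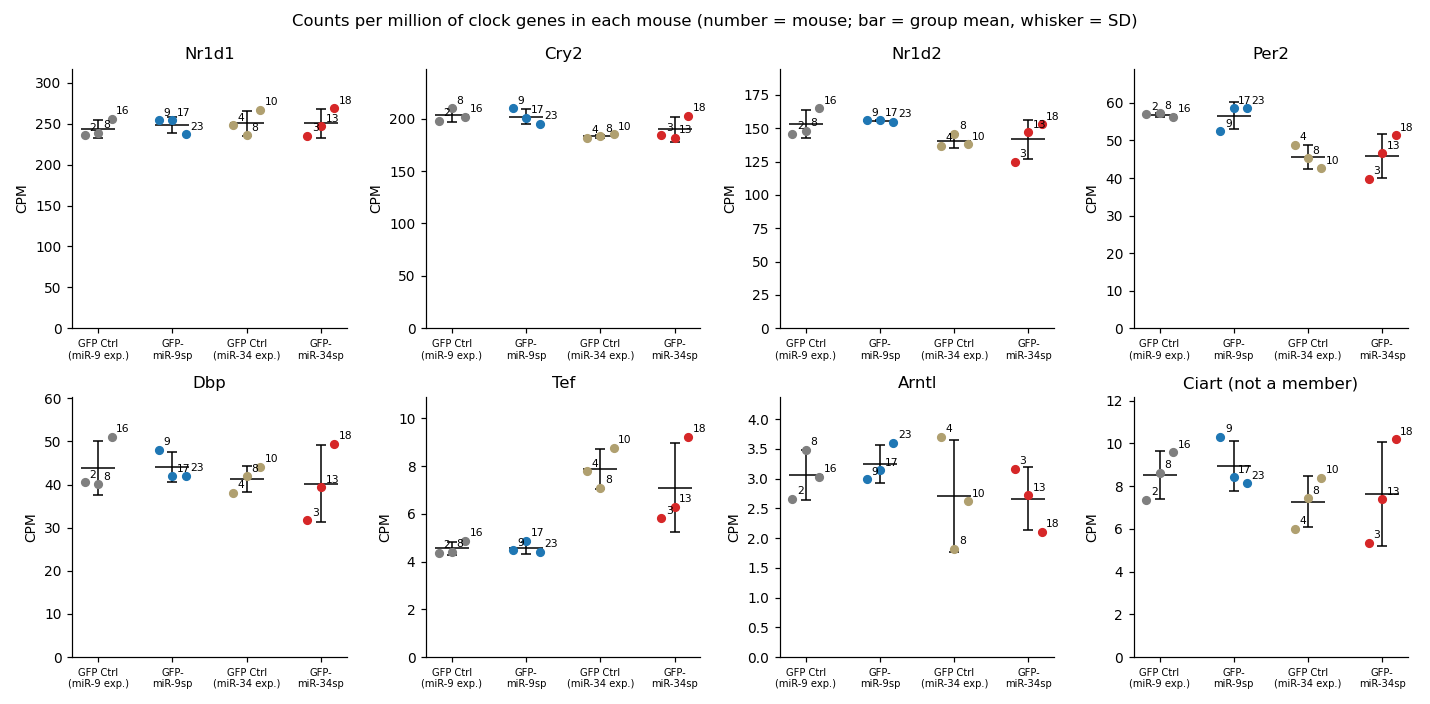
Level in CPM (y axis, from 0) of the 7 tested clock genes and of Ciart in each of the 12 mice (points, numbered by mouse) in the 4 groups, with the group mean (bar) and SD (whisker, n = 3). The groups of each experiment overlap in all panels, and mouse 18 of the GFP-miR-34sp group has the highest Dbp of its experiment with 49.5 CPM, and mouse 3 the lowest with 31.7 CPM.

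In the miR-34 experiment, the mice at the extremes were the same for most of these genes. GFP-miR-34sp mouse 18 had the highest level of 6 of the 7 tested clock genes, all but Arntl, and GFP-miR-34sp mouse 3 the lowest of 5, which were Per2, Nr1d1, Nr1d2, Dbp and Tef. Between these mice, Dbp differed by a factor of 1.56, Tef by 1.59, Per2 by 1.29, Nr1d2 by 1.22 and Nr1d1 by 1.15. Ciart differed by 1.9, with 10.2 CPM in mouse 18 and 5.36 CPM in mouse 3. Both mice carried the same vector, so this is a difference within a group and not between groups. In the miR-9 experiment the extremes were more scattered. GFP Ctrl mouse 16 had the highest Nr1d1, Nr1d2 and Dbp, and GFP Ctrl mouse 2 had the lowest Arntl, Nr1d1, Nr1d2 and Tef. The share of all genes that were highest or lowest in each of these mice was not counted. Whether such extremes are particular to the clock genes was therefore not tested.

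**Figure D4:**
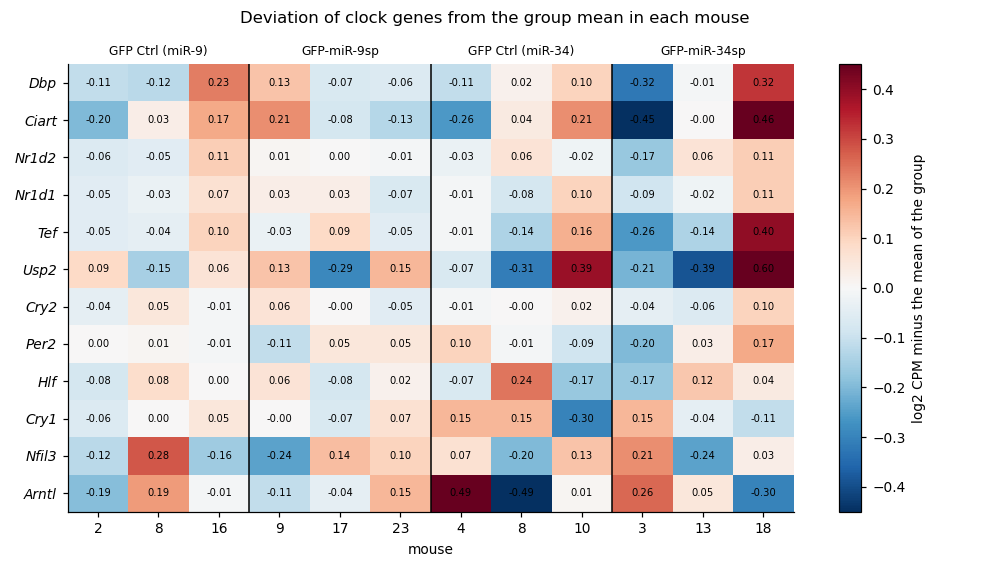
Log2 CPM minus the mean of the mouse's own group (colour and printed value, colours saturating at 0.45 in either direction) for 7 clock genes and 5 further genes of the pathway (rows) in the 12 mice (columns). In GFP-miR-34sp mouse 18, Dbp (0.32), Ciart (0.46), Tef (0.40) and Usp2 (0.60) lie above the group mean, and in mouse 3 they lie below it, with −0.32 for Dbp and −0.45 for Ciart.

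Pairs of genes were then correlated over the 6 mice of each experiment. The family held 90 relations, 45 pairs in 2 experiments, and 0 passed an adjusted p of 0.05, the lowest being 0.438 (exact permutation over 720 orders, two-sided). Over the 21 pairs of tested genes the median of Pearson's r was 0.52 in the miR-34 experiment, with 15 pairs above 0, and 0.08 in the miR-9 experiment, with 13 pairs above 0. The median of the miR-34 experiment fell to 0.17 without mouse 18 and to 0.24 without mouse 3, so that its size rests in part on these mice. In the miR-9 experiment it ranged from −0.18 without GFP Ctrl mouse 2 to 0.36 without GFP Ctrl mouse 8. On deviations from group means, the median was 0.57 in the miR-34 and 0.08 in the miR-9 experiment. The median r over pairs of other genes was not computed, so these medians have no background beside them.

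Nr1d1 and Nr1d2 had r = 0.79 in the miR-9 experiment (Spearman's rho = 0.89, exact permutation p = 0.0361 and 0.0333, adjusted p = 0.438 and 0.514, n = 6) and r = 0.88 without the 2 mice farthest from the median of Nr1d1. In the miR-34 experiment they had r = 0.47 (rho = 0.54, exact permutation p = 0.324 and 0.297, adjusted p = 0.775 and 0.755) and r = 0.43 without the 2 farthest mice. Dbp and Tef, both PAR bZIP factors, had r = 0.86 in the miR-34 experiment (rho = 0.83, exact permutation p = 0.0222 and 0.0583, adjusted p = 0.438 and 0.514) and r = 0.53 without the 2 farthest mice. In the miR-9 experiment their r was 0.51 (rho = 0.43, exact permutation p = 0.278 and 0.419, adjusted p = 0.735 and 0.755), and 0.53 without the 2 farthest mice. For each pair, single mice set the size of the lower of the 2 values. In the miR-34 experiment, r of Nr1d1 and Nr1d2 was 0.08 without mouse 3 and 0.17 without mouse 18, and in the miR-9 experiment r of Dbp and Tef was 0.07 without GFP Ctrl mouse 16. The higher values moved less when each mouse was left out. They were 0.70 to 0.92 for Nr1d1 and Nr1d2 in the miR-9 experiment. For Dbp and Tef in the miR-34 experiment they were 0.75 to 0.92.

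Arntl, the positive limb of the loop, had negative values of r with Dbp and Nr1d1. With Dbp its r was −0.64 in the miR-34 experiment (rho = −0.77, exact permutation p = 0.171 and 0.103, adjusted p = 0.529 and 0.514), and −0.60 without the 2 farthest mice. In the miR-9 experiment it was −0.22 (rho = −0.14, exact permutation p = 0.693 and 0.803, adjusted p = 0.943 and 0.976), and 0.30 without the 2 farthest mice. With Nr1d1 its r was −0.14 in the miR-34 experiment (rho = −0.20, exact permutation p = 0.761 and 0.714, adjusted p = 0.993 and 0.971) and −0.20 in the miR-9 experiment (rho = 0.03, exact permutation p = 0.71 and 1, adjusted p = 0.943 and 1), with 0.49 and −0.95 without the 2 farthest mice. None of these relations passed the correction, and Arntl rests on 21 to 76 reads. The pairs with Per1 and Per3 are of too few reads to be read. For Per1 and Per2, r was 0.62 in the miR-9 (rho = 0.49, exact permutation p = 0.208 and 0.356, r = 0.01 without the 2 farthest mice) and 0.36 in the miR-34 experiment (rho = 0.34, exact permutation p = 0.433 and 0.533, with r undefined without them). For Per2 and Per3 it was −0.00 (rho = −0.37, exact permutation p = 1 and 0.467, −0.74 without the 2 farthest) and 0.12 (rho = 0.13, exact permutation p = 0.833 and 1, 0.22 without them). For Dbp and Per3 it was 0.25 (rho = 0.07, exact permutation p = 0.7 and 0.933, −0.43 without the 2 farthest) and −0.08 (rho = −0.13, exact permutation p = 1 and 1, −0.36 without them).

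Before correction, 3 of the 21 pairs of tested genes in each experiment had an exact permutation p under 0.05, and they are named here after their values were seen. Nr1d1 with Tef (r = 0.82 and 0.87) and Nr1d2 with Dbp (r = 0.87 and 0.85) were among them in both experiments. The third pair was Nr1d1 with Nr1d2 in the miR-9 and Dbp with Tef in the miR-34 experiment. Without the 2 farthest mice, r of Nr1d2 with Dbp was 0.65 in the miR-9 and −0.07 in the miR-34 experiment, so that the latter rests on those mice. Over all 45 pairs, Per1 with Nr1d1 (r = 0.91, rho = 0.85) and Per1 with Cry2 (r = 0.86, rho = 0.85) in the miR-34 experiment also had an exact permutation p of 0.0333 for r (0.0667 for rho, adjusted p = 0.438 and 0.514), but there Per1 had reads in only GFP Ctrl mouse 10 (3 reads) and GFP-miR-34sp mouse 18 (5 reads).

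Dbp was used to look for genes with a similar pattern, by Pearson's r of the deviations from the group means over all 12 mice, among 8763 genes with a mean above 100 scaled reads in both experiments. Nr1d2 ranked 10th from the top with r = 0.87 (0.89 in the miR-9 and 0.87 in the miR-34 experiment), and Nr1d1 ranked 45th with 0.79 (0.79 and 0.80). Cry2 was at 0.62 and Per2 at 0.38, the latter with −0.60 in the miR-9 and 0.68 in the miR-34 experiment. The median over all ranked genes was 0.00, and 5% of them lay above 0.60. Ciart and Tef, too low for the ranking, had r of 0.94 (0.83 and 0.99) and 0.78 (0.51 and 0.87). Arntl had −0.54, and Nfil3, a repressor at D-boxes, −0.46.

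The 5 genes outside the list that were most like Dbp were Srsf12 (0.96), Tmx4 (0.94), Pfdn2 (0.91), Pias4 (0.91) and Maco1 (0.90), and the 3 least alike were Dock8 (−0.97), Srek1 (−0.96) and Srbd1 (−0.93). In GFP-miR-34sp mice 18 and 3, which differed most in Dbp, Srsf12 was at 43.4 and 39.7 CPM, Tmx4 at 560 and 504, Pfdn2 at 74.3 and 67, Pias4 at 24.8 and 21.5 and Maco1 at 103 and 84.1. The genes least alike were lower in mouse 18, with 9.4 and 11.8 CPM for Dock8, 83.5 and 104 for Srek1 and 15.5 and 18.6 for Srbd1. Ranks among so many genes over 12 mice are a description, and the genes share the libraries and their scaling.

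**Figure D5:**
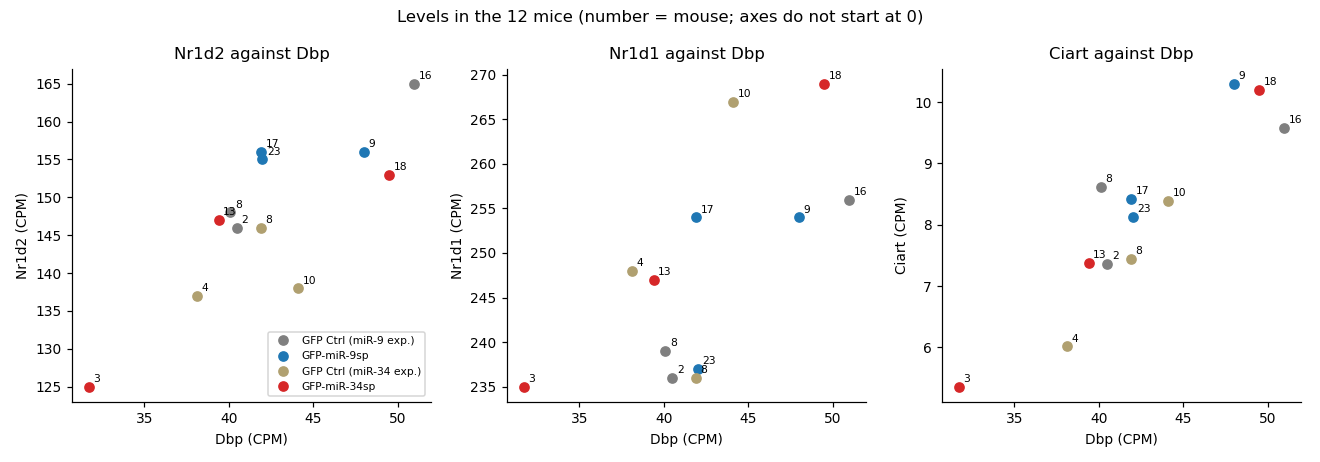
Level in CPM of Nr1d2, Nr1d1 and Ciart (y axes) against that of Dbp (x axes) in the 12 mice, coloured by group and numbered by mouse, with axes that do not start at 0. Mouse 3 lies at the lower left of all 3 panels and mice 16 and 18 at high Dbp, with Ciart rising from 5.36 CPM in mouse 3 to 10.2 CPM in mouse 18.

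Other measures were set beside Dbp, and single genes beside Per1, by correlation of log2 values over the 6 mice of each experiment. Group means were not removed here, so that differences between sponge and GFP Ctrl mice enter these values. The family held 16 relations with Benjamini-Hochberg adjustment, and 0 passed it (lowest adjusted p 0.4, exact permutation, two-sided, n = 6). The summed level of 10 glucocorticoid-responsive genes had r = 0.74 with Dbp in the miR-34 experiment (rho = 0.89, exact permutation p = 0.0903 and 0.0333, r = 0.70 without the 2 farthest mice) and 0.09 in the miR-9 experiment (rho = −0.09, exact permutation p = 0.85 and 0.919, r = −0.80 without them). The sum of 10 immediate early genes had r = 0.43 (rho = 0.60, exact permutation p = 0.4 and 0.242, 0.23 without the 2 farthest) and −0.52 (rho = −0.60, exact permutation p = 0.246 and 0.242, 0.01 without them). Of 9 tested genes in each of these lists, 0 were called in either sponge comparison.

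Total counts had r = −0.21 with Dbp in the miR-34 (rho = −0.03, exact permutation p = 0.683 and 1, −0.53 without the 2 farthest) and 0.55 in the miR-9 experiment (rho = 0.31, exact permutation p = 0.271 and 0.564, −0.38 without them). The choroid plexus sum had r = −0.05 (rho = −0.14, exact permutation p = 0.914 and 0.803, −0.01 without the 2 farthest) and −0.25 (rho = −0.31, exact permutation p = 0.589 and 0.564, 0.37 without them). The sum of 10 markers of hippocampal neurons had r = 0.81 in the miR-34 experiment (rho = 0.49, exact permutation p = 0.0639 and 0.356), which turned to −0.78 without the 2 farthest mice, and −0.46 in the miR-9 experiment (rho = 0.09, exact permutation p = 0.367 and 0.919, 0.47 without them).

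Per1 was set beside genes of neuronal activity and of the glucocorticoid response, on 0 to 5 reads of Per1, so that these values are given for completeness. With Fos its r was 0.73 in the miR-34 (rho = 0.85, exact permutation p = 0.1 and 0.0667, 0.87 without the 2 farthest) and 0.31 in the miR-9 experiment (rho = 0.54, exact permutation p = 0.517 and 0.297, 0.44 without them). With Fkbp5 it was 0.10 (rho = 0.14, exact permutation p = 0.833 and 0.8, −0.74 without the 2 farthest) and 0.08 (rho = 0.14, exact permutation p = 0.868 and 0.803, 0.58 without them). With Sgk1 it was 0.30 (rho = 0.30, exact permutation p = 0.633 and 0.6, 0.49 without the 2 farthest) and 0.75 (rho = 0.77, exact permutation p = 0.0875 and 0.103, 0.63 without them).

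The promoters of Dbp and of 4 genes with a high r with it are shown because genes of this kind are known for shared clock elements, and that of Per3 because it holds the D-boxes. They are RefSeq sequences on GRCm38.p6, from 250 bases before to 50 bases after the start, 5′ to 3′, found for 9 of the 10 clock genes. Per2 had no entry. Capitals mark the E-box CACGTG, the related element CACGTT, the D-box TTATGTAA or TTACGTAA and the nuclear receptor element AGGTCA, searched on both strands. No matches overlapped in these windows.
Dbp, chr7:45704997-45705296, plus strand: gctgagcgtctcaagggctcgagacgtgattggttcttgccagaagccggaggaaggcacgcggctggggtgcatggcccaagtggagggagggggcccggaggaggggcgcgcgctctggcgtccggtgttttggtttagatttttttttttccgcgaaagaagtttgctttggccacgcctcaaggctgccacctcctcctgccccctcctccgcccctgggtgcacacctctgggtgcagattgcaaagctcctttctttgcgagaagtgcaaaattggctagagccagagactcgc
Nr1d1, chr11:98775328-98775627, minus strand: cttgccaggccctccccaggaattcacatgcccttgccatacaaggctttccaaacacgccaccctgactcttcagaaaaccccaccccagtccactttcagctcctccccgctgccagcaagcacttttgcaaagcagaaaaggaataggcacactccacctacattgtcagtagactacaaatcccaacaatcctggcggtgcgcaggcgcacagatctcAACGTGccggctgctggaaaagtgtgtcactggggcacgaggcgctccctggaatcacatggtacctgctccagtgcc
Nr1d2, chr14:18239057-18239356, minus strand: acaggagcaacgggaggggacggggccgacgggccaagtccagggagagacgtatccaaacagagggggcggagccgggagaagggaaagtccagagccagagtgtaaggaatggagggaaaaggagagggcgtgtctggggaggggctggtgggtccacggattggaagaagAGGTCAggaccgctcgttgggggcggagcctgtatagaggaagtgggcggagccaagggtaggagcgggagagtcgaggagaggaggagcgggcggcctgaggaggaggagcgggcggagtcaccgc
Tef (downstream start), chr15:81811164-81811463, plus strand: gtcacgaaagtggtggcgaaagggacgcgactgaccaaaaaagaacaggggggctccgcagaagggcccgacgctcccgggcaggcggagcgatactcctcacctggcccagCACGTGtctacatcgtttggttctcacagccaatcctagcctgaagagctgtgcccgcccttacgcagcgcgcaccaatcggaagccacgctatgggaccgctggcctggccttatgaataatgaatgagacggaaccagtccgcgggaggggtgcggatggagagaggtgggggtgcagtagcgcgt
Ciart (not among the 10 genes), chr3:95882179-95882478, minus strand: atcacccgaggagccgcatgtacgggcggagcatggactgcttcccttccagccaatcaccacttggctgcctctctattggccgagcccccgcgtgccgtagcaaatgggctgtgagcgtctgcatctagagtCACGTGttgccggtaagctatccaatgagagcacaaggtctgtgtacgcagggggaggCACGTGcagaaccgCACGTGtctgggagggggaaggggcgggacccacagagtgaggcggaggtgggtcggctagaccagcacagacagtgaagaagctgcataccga
Per3, chr4:151044616-151044915, minus strand: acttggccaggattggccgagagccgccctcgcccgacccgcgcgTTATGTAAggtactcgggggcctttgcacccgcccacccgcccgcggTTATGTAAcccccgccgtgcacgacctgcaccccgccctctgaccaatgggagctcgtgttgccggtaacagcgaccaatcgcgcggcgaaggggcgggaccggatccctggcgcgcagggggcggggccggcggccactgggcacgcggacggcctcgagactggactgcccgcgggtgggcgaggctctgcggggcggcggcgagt

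Of the 9 clock genes with a promoter in the table, an E-box was found in 3, Per1, Tef and Bhlhe41, and the element CACGTT in 2, Nr1d1 and Cry2. The element AGGTCA was found in 3, Arntl, Nr1d2 and Per1. A D-box was found in Per3 alone, which holds 2. These counts are per gene, over 12 promoters in all, and a gene was counted if any of its promoters held the element. The shares that follow are per promoter, so the units differ. Over all 32851 promoters of this length, 7.15% held an E-box, 4.68% the element CACGTT, 1.06% a D-box and 16.3% the element AGGTCA. Ciart, whose level followed that of Dbp most closely among the further clock genes, held 3 E-boxes, and Dbp held none of these letters in this window. Cry1, with r = −0.43 to Dbp, also held an E-box, whereas Usp2 (0.62), Hlf (0.33) and Npas2 (0.18) held none of these elements. Whether E-boxes went with likeness to Dbp was not tested. A match says nothing on its own about binding in the hippocampus, and no match says only that the letters are not in this window.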

How the data were processed

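RNA of 12 mouse hippocampi was sequenced as 50 bp single end reads. The deposited values are raw counts of reads per RefSeq entry and mouse, made by the authors without further scaling, and the authors also deposited another kind of value, each entry's length in bases. The methods name poly-A selection and mm9, whereas the submitters' processing notes name STAR and mm10. The counting tool is not given in the sources used here. Of 32850 entries, 98.7% were joined to a symbol and added up to 24209 genes. Genes with a mean above 10 reads, scaled to the average total, were tested in edgeR 4.0.16 under R 4.3.3 (quasi-likelihood, TMM scaling) with Benjamini-Hochberg adjustment over all tested genes, in each experiment apart, and in 1 fit of 12 mice for the difference between the sponges and for the GFP Ctrl sets. DESeq2 1.42.0 was an alternative, with other scalings, no filter, entries kept apart, the criterion of the study and leaving out each mouse. CPM are counts at a TMM-scaled total of 1000000, and correlations used their log2 with a prior count of 2. The smallest detectable signal was taken as 3 reads, 1.23e-05% to 2.72e-05% of a mouse's total, which covers counting error only.

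The labels number the samples, and the methods give 12 mice in all. The titles of 1 set of GFP Ctrl mice name no experiment, and it was placed in the miR-9 experiment because the treatment text of the labels names a GFP9 set beside the set named for miR-34. The members and lists were chosen with earlier results of these data known. All 10 genes were named, further clock genes where a p was under 0.05 or where their spread or likeness to Dbp was described, the pairs Per1 with Per2, Per2 with Per3, Nr1d1 with Nr1d2, Nr1d1 with Arntl, and Dbp with Tef, Per3 and Arntl, and the 5 genes most and 3 least like Dbp. The correlations of Dbp with summed lists and totals were added after seeing the data. The code was tested on simulated data. Python 3.11.15 and pandas 2.3.3 were used. Some genes of these lists are not reported here.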

Additional observations from a re-analysis of the deposited data

How the results depend on the processing

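For the 7 tested clock genes, 0 had an adjusted p under 0.05 in either sponge comparison under any alternative that adjusts p. The count over all genes moved. After GFP-miR-9sp it was 0, against 2 with DESeq2, 2 with no filter, 185 by the criterion of the study and 0 to 1 when each mouse was left out. After GFP-miR-34sp it was 8, against 36 with DESeq2, 4 with RLE size factors, 4 with total counts alone, 4 with RefSeq entries apart, 81 with no filter, 251 by the criterion of the study, 0 in 1 fit of all 12 mice, and 0 to 57 when each mouse was left out (57 without GFP Ctrl mouse 10). For the difference between the sponges it was 0, against 4 with no filter, 5 with DESeq2 and 0 to 1 when each mouse was left out. The cause was not tested.

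Fold changes near 0 changed sign. Leaving out each mouse, those after GFP-miR-9sp ranged from −0.04 to 0.05 for Per2, −0.01 to 0.18 for Arntl, −0.01 to 0.08 for Nr1d2, −0.07 to 0.12 for Dbp, −0.04 to 0.06 for Tef and −0.04 to 0.02 for Cry2. After GFP-miR-34sp they ranged from −0.07 to 0.10 for Per2, −0.21 to 0.26 for Arntl, −0.06 to 0.05 for Nr1d1, −0.04 to 0.09 for Nr1d2, −0.21 to 0.09 for Dbp, −0.0026 to 0.08 for Cry2 and, with no change of sign, −0.38 to −0.05 for Tef. The difference between the sponges ranged from −0.06 to 0.11 for Per2, −0.30 to 0.18 for Arntl, −0.08 to 0.02 for Nr1d1, −0.07 to 0.07 for Nr1d2 and −0.21 to 0.09 for Dbp, and that between the GFP Ctrl sets from −0.45 to 0.03 for Arntl, −0.01 to 0.08 for Nr1d1 and −0.15 to 0.04 for Dbp. Tef after GFP-miR-9sp was −0.01 with total counts alone, −0.01 by the criterion of the study and −0.04 with entries apart. Nr1d1 after GFP-miR-34sp was 0.0006 with total counts alone and 0.0025 by the criterion of the study, Nr1d2 was 0.01 and 0.0035 for the difference with total counts alone and no filter, and Nr1d1 was −0.03 between the GFP Ctrl sets with total counts alone.

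Leaving out each mouse, the median r in the miR-9 experiment ranged from −0.18 to 0.36, and r of Nr1d1 and Arntl from −0.98 to 0.12 in the miR-9 and −0.72 to 0.15 in the miR-34 experiment. Adjusting over pairs of tested genes alone, chosen after seeing the data, left 0 pairs past the correction, as did total counts alone. No paired analysis was possible because sponge and GFP Ctrl mice of an experiment share no replicate number. With 3 mice per group, the intervals given above limit which changes could be seen.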
